A study of Caenorhabditis elegans with 3 samples.

Results

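The comparison set the transcriptome of ahr-1(ju145) animals (strain CZ2485) against that of the wild type N2, both measured in whole Caenorhabditis elegans L4 larvae. Of the 45343 features in the deposited table, 14463 were used. They were the features whose status was OK, whose FPKM was at least 1 in at least 1 of both libraries, and whose locus spanned at least 300 nt. FPKM counts sequenced fragments relative to transcript length and to library size. A second mutant of the same gene, ahr-1(ia03) in strain ZG24, was sequenced with them and is given only as a value side by side, because both mutants were compared with the same wild-type library. Each of the 3 strains gave 1 library, so replicate errors cannot be given and nothing was tested. Whole animals were used, so fewer cells of a type and less RNA per cell cannot be told apart.

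AHR-1, the worm counterpart of the aryl hydrocarbon receptor, is a bHLH-PAS transcription factor that pairs with AHA-1, the counterpart of ARNT. The vertebrate receptor is known for binding dioxins and for switching on detoxifying enzymes such as cytochromes P450. The worm protein does not bind dioxin, and it is known for setting the fate of certain neurons, among them GABA neurons of the head, oxygen-sensing neurons and touch receptor neurons. The gene groups below were chosen around these roles, around the cuticle and the germ line, which change quickly at L4, and around the basic machinery of the cell.

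Most transcripts of the ju145 animals lay close to wild type, slightly below it. The median log2 ratio of FPKM + 1 (ju145 over wild type) was -0.18, which is 0.880 of the wild-type value, and 72.0% of the genes lay below wild type. All ratios that follow are therefore centred on this median and called the centred ratio. On the centred log2 scale the quartiles were -0.22 and 0.22, the 5% and 95% points were -0.68 and 0.60, and 87.5% of the genes lay within 1.5-fold of the centre. Here and below, 2-fold higher or lower is meant against the centre, not against wild type itself. At least 2-fold higher were 170 genes (1.18%), and at least 2-fold lower were 259 (1.79%). Without the centring the counts were 127 and 442, so the share of higher genes among those past 2-fold moved from 39.6% to 22.3%. Of 57 gene lists with 5 or more measured genes, 40 had a median above the centre, and 27 of these medians were below 0 when the ratios were not centred. A list median a little above the centre therefore shows its place among all genes and no direction against wild type.

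Short transcripts supplied much of the tails. Of the 429 genes past 2-fold, 177 had a reference transcript under 300 nt, although only 398 of all genes in the comparison did, and 156 were listed at 0 in 1 of both libraries. Transcripts under 200 nt had an interquartile range of 4.39 on the centred log2 scale, against 0.33 for those of at least 2000 nt. Noncoding RNAs named ncRNA numbered 197, of which 47 were at least 2-fold above the centre and 74 at least 2-fold below it. The snoRNAs, which guide the modification of ribosomal RNA, numbered 17, of which 3 were higher and 9 lower. A locus in the files is the whole stretch of overlapping features, so a short RNA inside a larger gene passes the limit on locus span. With a span of 200 to under 300 nt, just outside the limit, 57.8% of 116 features were past 2-fold. With a span of 300 to under 400 nt, just inside it, 18.9% of 222 genes were. Genes with a reference transcript of at least 300 nt numbered 13852. Of these, 89 (0.643%) were at least 2-fold above the centre and 138 (0.996%) at least 2-fold below it.

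**Figure D1:**
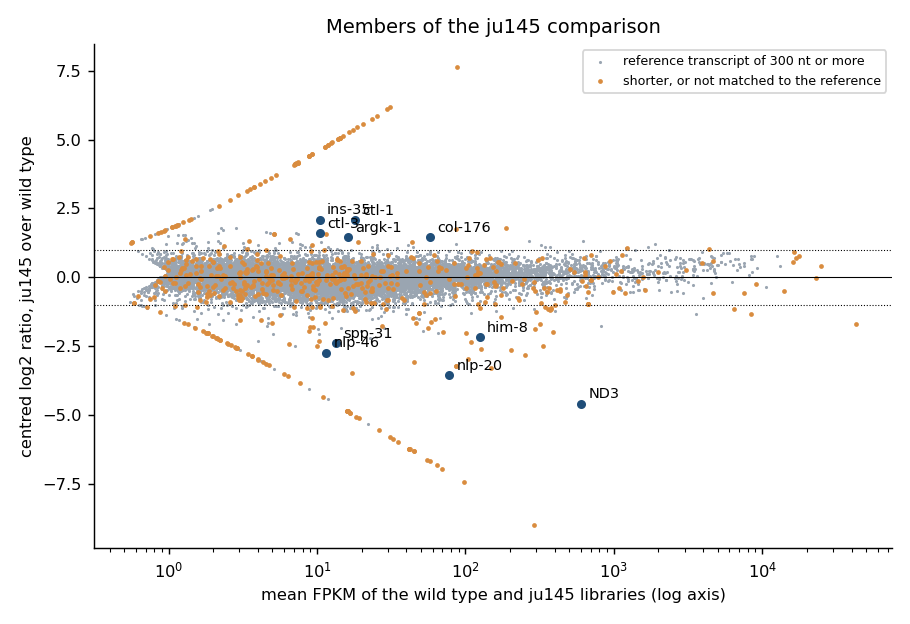
Each point is 1 of the 14463 genes, with the mean FPKM of the wild type and ju145 libraries on a log x axis and the centred log2 ratio of ju145 over wild type on the y axis. Orange points have a reference transcript under 300 nt or none, blue points are named genes, dotted lines mark 2-fold, and the diagonal arms are genes listed at 0 in 1 library.

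The features with the largest values listed at 0 on one side were all short RNAs. F54C8.11, an ncRNA of 112 nt on chromosome III, measured 582 FPKM in wild type but was given as 0 in both mutants. F11A10.9, a snoRNA of 120 nt on chromosome IV, was listed at 0 in wild type and ia03 and had an FPKM of 175 in ju145. The 2 examples go in opposite directions, and no fold is given for either. Several of the lowest values above 0 belonged to the same class. C18A3.17, an ncRNA of 139 nt, was at 275 FPKM in wild type, 23.6 in ju145 and 27.8 in ia03, and the snoRNA K07C5.11 of 127 nt had 357, 49.2 and 30.6.

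Protein-coding genes with a reference transcript of at least 300 nt, and with an FPKM of at least 1 in both libraries, numbered 12837. Of these, 51 were at least 2-fold above the centre and 97 at least 2-fold below it. With an FPKM of at least 10 in both, 19 of 7852 were higher and 40 lower. The 12 genes at each end hold catalases, secreted peptides, an arginine kinase and a collagen on the higher side, and mitochondrial genes, neuropeptides and a chromosome pairing protein on the lower side.

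**Figure D2:**
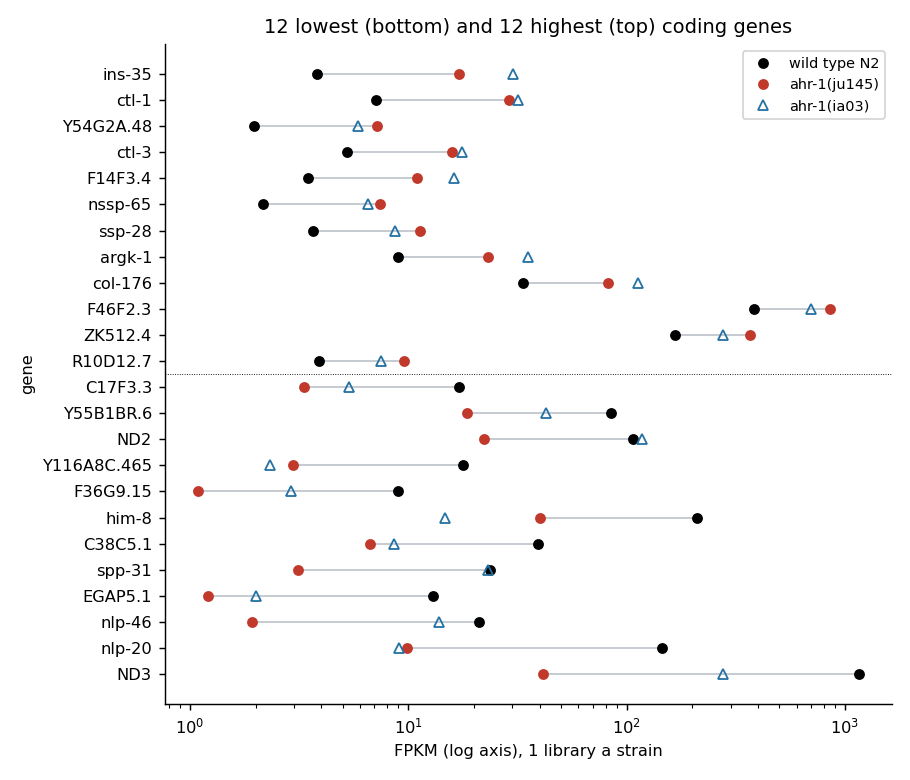
FPKM on a log axis for the 12 protein-coding genes with the highest and the 12 with the lowest centred ratio, with 1 point for each library of wild type (black), ahr-1(ju145) (red) and ahr-1(ia03) (blue triangles). The ia03 value of nlp-20 lies beside the ju145 value, while those of spp-31 and ND2 lie at the wild-type value.

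The highest coding gene was ins-35 (chromosome V, 20375509 to 20376268), which encodes an insulin-like peptide. Its FPKM was 3.81 in wild type, 17.03 in ju145 and 30.1 in ia03, a centred log2 ratio of 2.09 in ju145. ctl-1 came next, and ctl-3, another catalase gene, followed after Y54G2A.48. Catalases break down hydrogen peroxide, and 3 of them stand side by side on chromosome II. ctl-1 (14303536 to 14306217), the cytosolic catalase, stood at 7.08 FPKM in wild type, 29.1 in ju145 and 31.95 in ia03, a centred log2 ratio of 2.08 in ju145. Its neighbour ctl-3 (14307778 to 14310703) had 5.25, 15.8 and 17.6, with a centred log2 ratio of 1.61. The peroxisomal catalase ctl-2, much the most abundant of the 3, had 77.2, 66.6 and 73.1, with a centred log2 ratio of -0.03. Thus ctl-1 and ctl-3 were high in both mutant libraries and ctl-2 lay at the centre. The superoxide dismutases sod-1, sod-3 and sod-4 had centred log2 ratios of 0.30, -0.16 and -0.26.

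argk-1 (chromosome V, 16103874 to 16106120) encodes an arginine kinase, an enzyme that stores high-energy phosphate on arginine. Its FPKM was 8.95 in wild type, 23.2 in ju145 and 35.3 in ia03, a centred log2 ratio of 1.47 in ju145. The cuticle collagen gene col-176 (chromosome X, 10077554 to 10078679) had 33.5, 82.0 and 113, with a centred log2 ratio of 1.45. Both were higher in ia03 than in ju145. F46F2.3 on chromosome X had the highest level of this end, with 383 FPKM in wild type, 850.4 in ju145 and 695 in ia03. ZK512.4 had 166, 369 and 275. ssp-28, a gene of a small sperm protein family, measured 3.66 FPKM in wild type, 11.3 in ju145 and 8.66 in ia03. nssp-65, Y54G2A.48, F14F3.4 and R10D12.7 complete the 12, each with a wild-type FPKM under 4 and a reference transcript of 355 to 433 nt. tag-272, whose reference transcript of 285 nt put it outside the 12, was high in ju145 alone, with 5.93 FPKM in wild type, 17.1 in ju145 and 2.78 in ia03.

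Of the lower genes, nlp-20 (chromosome IV, 7642046 to 7643114), which encodes neuropeptide-like proteins, was at 145.4 FPKM in wild type, 9.88 in ju145 and 9.10 in ia03. Its centred log2 ratio was -3.57 in ju145 and -3.83 in ia03. him-8 (chromosome IV, 10561894 to 10563954) encodes the zinc-finger protein that binds the pairing centre of the X chromosome in meiosis. Its FPKM was 209 in wild type, 40.1 in ju145 and 14.8 in ia03, a centred log2 ratio of -2.17 in ju145. Both genes were low in both mutants. C38C5.1 on chromosome X had 39.1, 6.68 and 8.61, and C17F3.3 on chromosome I had 17, 3.33 and 5.36.

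For some genes that were low in ju145, ia03 lay nearer to wild type. spp-31 (chromosome IV, 1406551 to 1408058) encodes a saposin-like protein, a family of which several members act on bacterial membranes. Its FPKM was 23.6 in wild type, 3.13 in ju145 and 23.1 in ia03, a centred log2 ratio of -2.39 in ju145. The neuropeptide gene nlp-46 (chromosome V, 12503780 to 12506241) had 21.1, 1.92 and 13.9, with a centred log2 ratio of -2.74. Y55B1BR.6 on chromosome III had 84.7, 18.5 and 42.7. EGAP5.1, F36G9.15 and Y116A8C.465 complete the nuclear genes of the 12 and were low in both mutants. EGAP5.1 had 12.96, 1.21 and 2.01, F36G9.15 had 8.95, 1.09 and 2.91, and Y116A8C.465 had 17.7, 2.97 and 2.32.

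The authors' deposited table, whose q-values come from 1 library a side, listed a q-value under 0.05 for 1374 of the 14463 genes. Before any centring, 139 of these were higher in ju145 by the authors' deposited table (0.961%) and 1235 lower (8.54%). Of the same genes, 160 were also past 2-fold on the centred scale, 44 higher and 116 lower. In the authors' deposited table fewer genes, 496, were marked as differentially expressed, 34 higher and 462 lower in ju145. The authors' deposited table gave a q-value of 1.64e-12 for ctl-1, 2.35e-06 for ctl-3, 2.02e-05 for argk-1, 2.97e-04 for ins-35 and 4.97e-04 for spp-31, and listed 0 for nlp-20. In the authors' deposited table the q-value of him-8 was 0.748 and that of nlp-46 was 0.152, so their size put them among the lowest but the authors' call did not include them.

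The mutated gene itself was near the limit of detection. ahr-1 (C41G7.5, chromosome I, 9522570 to 9532823) stood at 0.664 FPKM in wild type, 0.569 in ju145 and 0.699 in ia03, under the floor of 1. Its locus overlaps cylc-2, with 112 FPKM in wild type, 49.5 in ju145 and 48.6 in ia03, which makes the assignment of its reads doubtful. Because 1 value covers the whole gene, it does not check the strain labels. The partner gene aha-1 had 9.51, 8.27 and 10.98, a centred log2 ratio of 0.00 in ju145. daf-21, which encodes the chaperone HSP90 that holds such receptors, measured 1324 FPKM in wild type and 1331 in ju145. hif-1, which encodes the hypoxia-inducible factor that also pairs with AHA-1, had 96.1 and 95.6. The bHLH-PAS genes cky-1 and hlh-34 were below the floor in both libraries.

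In the neuron groups in which AHR-1 is known to act, 9 GABA genes, 14 touch receptor genes and 1 soluble guanylate cyclase gene were measured. Of these, 0 were past 2-fold, against 1.18% higher and 1.79% lower over all genes, so a count of 0 is near the background. GABA is the main inhibitory transmitter of the worm's motor circuit. All 9 listed GABA genes were measured, with a median centred log2 ratio of 0.09, beside 0.06 for other genes at like level, meaning the same class of mean FPKM. unc-25, which encodes the enzyme that makes GABA, was at 20.01 FPKM in wild type and 18.7 in ju145. unc-47, the vesicular GABA transporter, had 1.60 and 0.992, and unc-30, the homeobox gene that specifies GABA motor neurons, had 0.937 and 1.48. unc-47 passed the floor of 1 only through wild type and unc-30 only through ju145, so their directions were fixed. lim-6, a homeobox gene expressed in some GABA neurons, had 4.52 and 5.56.

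Of the touch receptor neuron genes, 14 of 16 listed were measured and 11 lay above the centre. The median centred log2 ratio was 0.31 in ju145, beside 0.01 for other genes at like level and 0.21 for the same genes in ia03. mec-7 and mec-12, which encode the tubulins of the special microtubules of these cells, had an FPKM of 38.2 and 54.1 in wild type and 47 and 65.2 in ju145. mec-2, a stomatin-like channel partner, had 5.29 and 6.69. mec-19 was the highest, with 2.30 FPKM in wild type and 4.40 in ju145, and mec-15, an F-box gene, the lowest, with 31.1 and 24.1. mec-3, the homeobox gene that specifies these neurons, had 1.80 and 1.68. The oxygen-sensing neurons use soluble guanylate cyclases, of which only gcy-35 of 7 reached the floor, with 1.01 FPKM in wild type, 0.240 in ju145 and 0.686 in ia03. gcy-35 passed the floor only through wild type, so it had to be lower. Its centred log2 ratio was -0.51, a size that the pseudocount of 1 holds down at such a level. The authors' deposited table listed a q-value of 3.49e-04 for gcy-35 and marked it as differentially expressed.

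Neuropeptide genes lay mostly above the centre. Of the neuropeptide-like nlp genes, 72 of 81 were measured, 57 above the centre, with a median centred log2 ratio of 0.32, beside -0.02 for other genes at like level and -0.03 for the same genes in ia03. Of these 72, 1 was at least 2-fold above the centre, against 1.18% of all genes, and 4 were at least 2-fold below it, against 1.79%. The lower ones were nlp-20 and nlp-46, given above, nlp-78, with 11.1 FPKM in wild type and 3.41 in ju145, and nlp-66, with 5.12 and 1.55. The higher one was nlp-101, with 5.94 and 12.05. The middle of the list lay above the centre, while its 2 largest differences, of nlp-20 and nlp-46, were below it. Of the FMRFamide-like flp genes, 30 of 31 were measured and 22 lay above the centre, with a median of 0.25 in ju145 and -0.00 in ia03. flp-28 stood at 95.2 FPKM in wild type, 159 in ju145 and 131 in ia03, and flp-8 had 9.71, 5.00 and 5.13. Genes that all neurons use had a smaller shift. Of 18 pan-neuronal genes 15 lay above the centre, with a median of 0.12, and without the centring that median was -0.06. unc-31, which encodes a protein of dense-core vesicle release, measured 2.42 FPKM in wild type and 3.30 in ju145.

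Insulin-like peptides ranged widely, with a median centred log2 ratio of -0.24 over 28 of 40 listed genes and quartiles of -0.53 and 0.33. ins-21 was at 10.3 FPKM in wild type but was given as 0 in both mutants. It passed the floor only through wild type, so it had to be lower, and its locus spans only 317 nt. The authors' deposited table gave a q-value of 0.196 for ins-21. daf-28, a peptide that promotes reproductive growth, stood at 12.2 FPKM in wild type and 19.1 in ju145. With a locus span of at least 1000 nt, the median of the insulin-like list was 0.20.

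bHLH factors of the hlh series without a PAS domain were measured in 9 of 25 cases, and 8 of the 9 lay above the centre, with a median of 0.49 in ju145 and 0.25 in ia03. With a pseudocount of 5 the ju145 median was 0.29, and without the filter on low values 0.37. hlh-16 measured 0.440 FPKM in wild type, 2.41 in ju145 and 0.485 in ia03. hlh-15 was listed at 0 in wild type and had 1.38 in ju145 and 1.76 in ia03. Both called genes passed the floor only through the mutant library, so they had to be higher.

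Detoxifying enzymes are the known targets of the vertebrate receptor. Among the P450, UDP-glucuronosyltransferase and glutathione S-transferase genes 0 were past 2-fold, against 1.18% higher and 1.79% lower over all genes. Of the cytochrome P450 genes, 46 of 81 were measured and 31 lay below the centre, with a median centred log2 ratio of -0.10 in ju145 and 0.22 in ia03. With a pseudocount of 5, or without the filter on low values, the ju145 median was -0.02. cyp-13B1 was the highest, with 3.52 FPKM in wild type, 5.65 in ju145 and 11.2 in ia03. cyp-35A2, of a subfamily known for induction by foreign compounds, had 62.3, 39.3 and 56.9. Of the UDP-glucuronosyltransferases, which attach sugar acids to compounds before export, 51 of 67 were measured and 37 lay below the centre. Their median was -0.21, beside -0.02 for other genes at like level and 0.08 for the same genes in ia03. Under either of those changes it was -0.14 in ju145. ugt-53 was the lowest, with 20.2 FPKM in wild type, 9.70 in ju145 and 13.99 in ia03. ugt-26, the highest expressed of the 5 lowest, had 240.4, 139 and 175. Glutathione S-transferases had a median of 0.09 over 40 genes, with gst-23 highest at 0.885 FPKM in wild type and 1.76 in ju145. gst-23 passed the floor only through ju145, so it had to be higher. Kynurenine pathway genes, which break down tryptophan and whose vertebrate products bind the receptor, had a median of -0.06 over 8 genes. The arylformamidase gene afmd-1 was at 10.2 FPKM in wild type, 5.24 in ju145 and 6.29 in ia03, and kmo-2, a kynurenine monooxygenase gene, had 9.64, 5.11 and 6.64. The first enzyme, tdo-2, had 179 in wild type and 157 in ju145.

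Of the gene lists with 5 or more measured genes, the RNAs encoded in the mitochondrial genome had the median furthest from the centre. All 14 measured genes, 12 coding and 2 ribosomal, lay below it in ju145, and 8 of the 14 were at least 2-fold lower, against 1.79% of all genes. Their median centred log2 ratio was -1.26, beside 0.18 for other genes at like level and 0.19 for the same genes in ia03. ND3, a subunit of complex I, stood at 1163 FPKM in wild type, 41.5 in ju145 and 275 in ia03. ND2, another subunit of complex I, had 107, 22.3 and 117, with a centred log2 ratio of -2.03 in ju145. ND6 had 1309.6, 337 and 1308.8. Of these 3 complex I genes, ND3 was the only one also low in ia03. The other 4 complex I genes ranged from -1.9996 for ND4L through -1.21 for ND5 and -0.78 for ND4 to -0.54 for ND1, so the complex as a whole spread over most of the list. The list median was -0.78 over the 7 genes with a locus span of at least 1000 nt, and also -0.78 with reference transcripts of at least 500 nt.

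The genes nearest the centre were COX1, COX3, ND1 and COX2, of which the COX genes encode subunits of cytochrome c oxidase. COX1 measured 3061 FPKM in wild type, 2572 in ju145 and 5732 in ia03, a centred log2 ratio of -0.07 in ju145. COX3 had 6986, 5475 and 8549, with a ratio of -0.17, and COX2 had 3649, 2162 and 4769, with -0.57. Further down lay ctb-1, the cytochrome b gene of complex III, with a ratio of -0.75, and ATP6, a subunit of the ATP synthase, with -1.31. The ribosomal RNAs MTCE.7 and MTCE.33 had an FPKM of 75.1 and 32.8 in wild type and 22.7 and 6.68 in ju145. The authors' deposited table listed a q-value of 0 for ND2 and ND3 and 3.37e-07 for ND4L. ND3 shares its locus with ND5, ATP6 with ND1 and ND4L with ND6, so reads between those neighbours are uncertain.

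The nuclear genes of the same machines lay on the other side. Of 62 measured nuclear respiratory chain genes, 52 lay above the centre, with a median of 0.23, beside 0.16 for other genes at like level. Past 2-fold were 0 of them, against 1.18% higher and 1.79% lower over all genes. cox-6C, a subunit of cytochrome c oxidase, was at 1610.0 FPKM in wild type, 2478 in ju145 and 1744 in ia03, and mev-1, a subunit of complex II, had 177 in wild type and 247 in ju145. Of 70 mitochondrial ribosomal protein genes, 55 lay above the centre, with a median of 0.17. Of 22 citric acid cycle genes, 18 did, with a median of 0.17. Without the centring the last 2 medians were both -0.02, so only the distance from the mitochondrial genome's RNAs, not the direction, held for these 2 lists.

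Cytoplasmic ribosomal protein genes lay above the centre almost throughout. Of 73 measured, 72 lay above the centre, with a median centred log2 ratio of 0.53, beside 0.18 for other genes at like level and 0.02 for the same genes in ia03. At least 2-fold higher were 2, rpl-37 and rpl-29, against 1.18% of all genes. Their reference transcripts have 276 and 240 nt, and of genes with 200 to under 300 nt 9.61% were at least 2-fold higher. rpl-37 stood at 865 FPKM in wild type, 1583 in ju145 and 1174 in ia03, and rpl-29 had 3114, 5604 and 6424. rpl-39 had 12283 in wild type and 20635 in ju145. The exception was rpl-42, with 18.03 and 10.9. Ribosomal protein transcripts are abundant, and the level moved with the ratio over all genes. The median centred log2 ratio was 0.29 for the 238 genes with a mean FPKM of at least 1000, and -0.07 for those of 10 to under 30. The 238 include ribosomal protein genes themselves, and the 0.18 above is the value without them. The part of level in the ribosomal shift was not tested. Translation factors had a median of 0.10 over 35 genes and aminoacyl-tRNA synthetases -0.04 over 31.

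**Figure D3:**
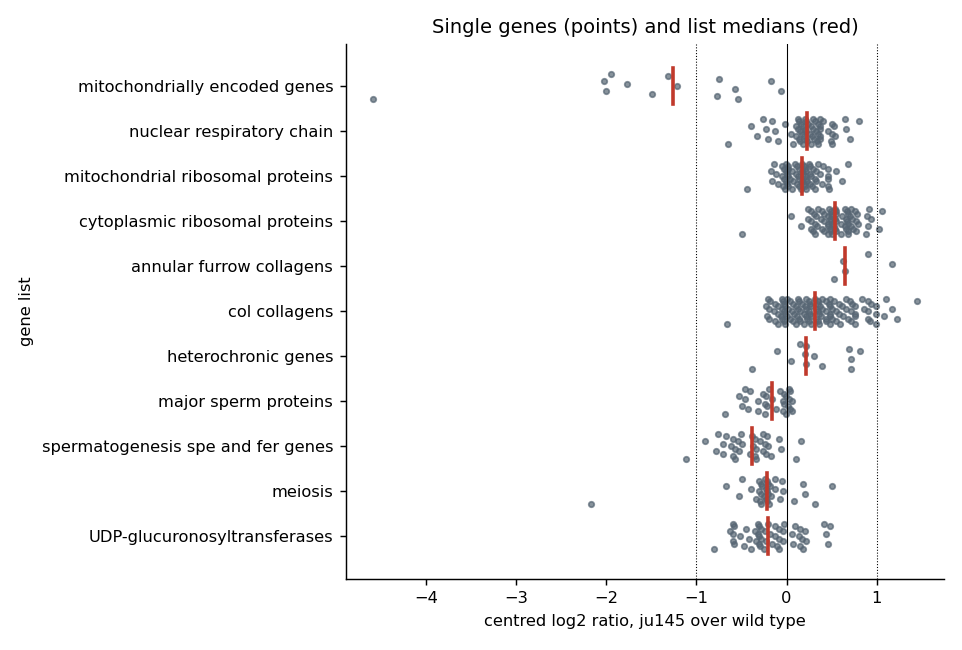
Centred log2 ratios of ju145 over wild type for the single genes (points) of 11 gene lists, with the list medians as red bars and dotted lines at 2-fold. Mitochondrially encoded genes reach from -4.59 to -0.07, while 72 of 73 cytoplasmic ribosomal protein genes lie above the centre.

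Cuticle collagens and apical matrix genes lay mostly above the centre. The worm's cuticle is a collagen matrix that is remade at each moult, and each collagen group is expressed at its own time of the moulting cycle. All 5 measured annular furrow collagens, which form the rings of the cuticle, were above the centre, with a median centred log2 ratio of 0.65 in ju145 and 1.36 in ia03. dpy-3 measured 27.1 FPKM in wild type, 54.9 in ju145 and 84.2 in ia03, and dpy-10 had 29.5, 41.2 and 80.0. Each of the 5 was lowest in wild type, intermediate in ju145 and highest in ia03. The other body-shape collagens were above the centre in 12 of 12 cases, with a median of 0.57 in ju145 and 0.63 in ia03. bli-6 had 292, 422 and 444, sqt-3 had 324, 464 and 539, and dpy-17, the lowest in level, had 1.86, 1.63 and 2.22.

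Of the col genes, 117 of 160 were measured, 93 lay above the centre and 5 were at least 2-fold higher, against 1.18% of all genes, with a median of 0.32, beside 0.09 for other genes at like level and -0.01 for ia03. col-10 was at 1241 FPKM in wild type, 2557 in ju145 and 1974 in ia03, and col-144, its near neighbour on chromosome V, had 1172, 2215 and 1814. col-169 had 215, 428 and 427. Some abundant collagens went the other way in ia03 and little in ju145. col-124 had 5121 in wild type, 3951 in ju145 and 2326 in ia03. Cuticlins and other apical matrix genes were above the centre in 38 of 42 cases, with a median of 0.30 in ju145 and 0.59 in ia03. fbn-1, a fibrillin-like gene, had 9.56, 17.7 and 27.5, noah-2 had 43.1, 72.4 and 107, and the moulting gene mlt-11 had 24.1, 39.2 and 52.4. Of 61 hedgehog-related and patched-related genes, many of them active in the skin, 44 lay above the centre. grd-13 alone was past 2-fold, with 57.1, 116 and 95.6, against 1.18% of all genes higher. The astacin metalloproteases, some of which process the cuticle, were spread evenly, with 15 of 29 above the centre and a median of 0.01.

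Heterochronic genes, which set the order of larval stages, lay above the centre in 11 of 13 cases, with a median of 0.22. lin-42, the counterpart of period, whose level cycles with the moults, stood at 57.7 FPKM in wild type, 90.1 in ju145 and 102 in ia03. mab-10 had 12.01, 17.8 and 20.8, hbl-1 had 1.81, 3.05 and 3.00, and nhr-25, a nuclear receptor needed for moulting, had 2.42, 3.88 and 4.25. The stage genes lin-14 and lin-28 had centred log2 ratios of 0.21 each, and lin-29, which starts the adult programme, had 0.39. Markers of the adult stage lay near the centre or below it. col-19, an adult collagen, measured 1806 FPKM in wild type, 1572 in ju145 and 941 in ia03, a centred log2 ratio of -0.02 in ju145, and the yolk gene vit-6 had 3301, 2057 and 1602. Age within L4 moves the same genes, and its part in these values was not tested.

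Sperm and meiosis genes lay mostly below the centre. The L4 hermaphrodite makes sperm before it turns to oocytes. Of the spe and fer genes, needed for sperm formation and fertilisation, all 35 were measured and 33 lay below the centre. At least 2-fold lower was 1, against 1.79% of all genes. Their median centred log2 ratio was -0.38 in ju145, beside -0.00 for other genes at like level and -0.55 in ia03. spe-29 was at 6.66 FPKM in wild type, 2.11 in ju145 and 6.32 in ia03, and spe-11 had 89.7, 45.4 and 50.2. The other small sperm proteins were below the centre in 32 of 36 cases, with a median of -0.37 in ju145 and -0.82 in ia03. Over the 5 of them with a locus span of at least 1000 nt the median was -0.20. Among them nspd-9 had 168, 74.4 and 45.9. Of the 36 genes, 2 were at least 2-fold higher, against 1.18% of all genes, and 0 were at least 2-fold lower, against 1.79%. The higher ones were ssp-28, given above, and the pseudogene nspd-11, listed at 0 in wild type and ia03 and at 13.9 FPKM in ju145. nspd-11 passed the floor only through ju145, so it had to be higher. Over all genes, reference transcripts of 200 to under 300 nt had a median of -0.16 in ju145 and -0.59 in ia03. Those of 300 to under 500 nt had 0.00 and -0.19. The sperm lists were not matched on length, and the part of length in their values was not tested.

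The major sperm proteins, the cytoskeleton of the crawling nematode sperm, had a median of -0.16 over 31 genes in ju145, beside 0.18 for other genes at like level and -0.74 in ia03. Over the 3 of them with a locus span of at least 1000 nt the median was -0.0088. msp-57 stood at 1663 FPKM in wild type, 1011 in ju145 and 838 in ia03. These genes are near-identical copies, so the split of reads among them is uncertain. The 6 vitellogenins were all below the centre, from -0.50 for vit-6 to -0.02 for vit-2, while the yolk receptor gene rme-2 was at 0.09. Meiosis genes lay below the centre in 30 of 35 cases, with a median of -0.21 in ju145 and -0.18 in ia03. him-8 alone was past 2-fold, on the lower side, against 1.79% of all genes. The list was made by gene names and so takes in him-4, a matrix gene, at 0.09. him-5 had 10.6, 5.39 and 8.33, and spo-11, which makes the breaks that start recombination, had 17.2, 10.3 and 15.8. Germline RNA regulators had a median of -0.01 over 43 genes in ju145 and -0.18 over 41 genes in ia03. The germline helicase glh-1 had 341 in wild type and 314 in ju145. In ju145 a level below the centre was thus seen in sperm and meiosis genes and not in this list, a difference that was not tested. In ia03 this list was as low as the meiosis genes, and without the centring its ju145 median was -0.19. Argonautes and small RNA factors were below the centre in 33 of 45 cases, with wago-10 lowest at 14.2 in wild type and 7.29 in ju145.

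**Figure D4:**
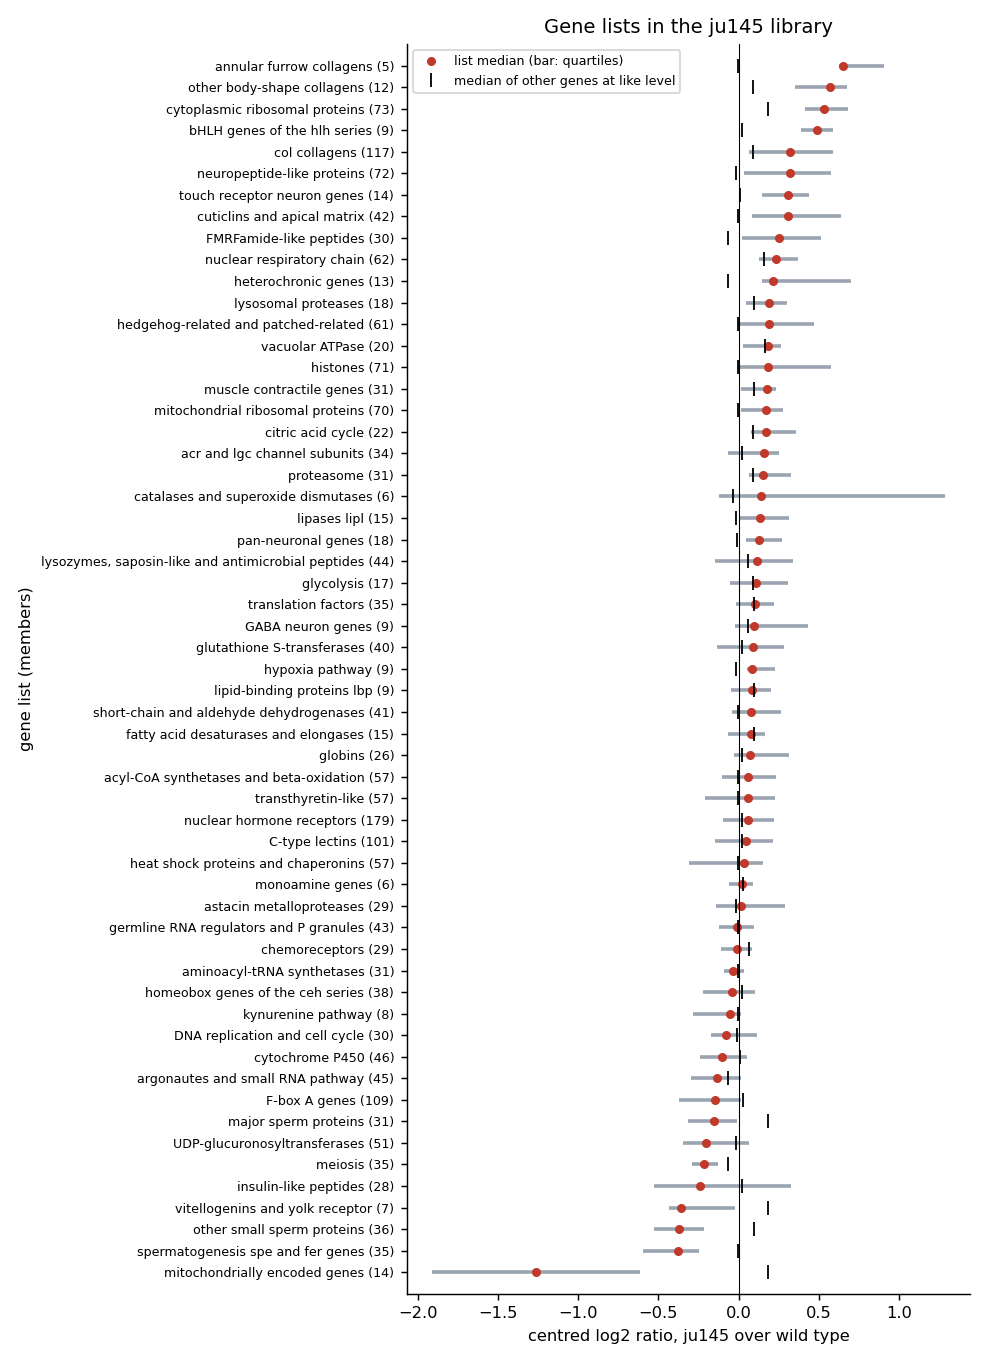
Median centred log2 ratio of ju145 over wild type (red points) with quartiles (grey bars) for the gene lists of at least 5 measured genes, with the median of other genes at like level as a black tick. Annular furrow collagens (0.65) stand at the top and mitochondrially encoded genes (-1.26) at the bottom.

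The remaining groups stayed near the centre, with single exceptions. Histone genes had a median of 0.18 over 71 genes and 5 were at least 2-fold higher, against 1.18% of all genes. his-1 measured 1.74 FPKM in wild type and 4.64 in ju145, while his-10, his-14 and his-26 had the same values, 8.40 and 15.9, as near-identical copies do, so 3 of the 5 are 1 repeated value. Most histone messages of animal cells lack a poly(A) tail. Among lysozymes, saposin-like and antimicrobial peptides 3 of 44 genes were higher and 3 lower, against 1.18% and 1.79% of all genes. The higher ones, abf-1, abf-3 and abf-4, had a wild-type FPKM under 1, so they passed the floor through ju145 and had to be higher. F-box A genes lay below the centre in 79 of 109 cases, with fbxa-192 lowest at an FPKM of 11.3 in wild type, 3.24 in ju145 and 0.381 in ia03. Its neighbour on chromosome V, the pseudogene fbxa-191, had 4.12, 1.21 and 0.145. Of the heat shock genes 0 of 57 were past 2-fold, with hsp-70 lowest at 24.7, 11.4 and 11.2. C-type lectins (101 genes, median 0.04), nuclear hormone receptors (179 genes, median 0.05), homeobox genes of the ceh series (38 genes, median -0.04) and transthyretin-like genes (57 genes, median 0.06) held 0 genes past 2-fold. Beside these lists and the heat shock genes, the shares over all genes were 1.18% higher and 1.79% lower.

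Cell type markers were detected for every tissue looked for, and those among the genes compared had centred log2 ratios between -0.50 and 0.36. The body wall muscle genes myo-3, unc-54 and unc-15 were at 0.12, 0.20 and 0.18. The intestinal genes elt-2, vha-6 and ifb-2 were at 0.33, 0.10 and 0.14, and ges-1, left out for its status, at -0.19. The neuronal rab-3, snb-1 and unc-64 were at -0.02, 0.28 and -0.12. The sperm markers msp-3, spe-9 and gsp-3 were at -0.26, -0.49 and -0.24. Fatty acid desaturases and elongases had a median of 0.07 over 15 genes, and fat-7, a desaturase that makes oleic acid, was at 97.6 FPKM in wild type, 129 in ju145 and 188 in ia03.

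Position in the genome also went with the ratio. Genes on the X chromosome had a median centred log2 ratio of 0.11 over 2037 genes, with 66.1% above the centre. The autosomes lay between -0.04 for chromosome I and -0.00 for chromosome V. Among genes with a reference transcript of at least 300 nt, the X median exceeded the autosomal median in 7 of 8 classes of level, by 0.16 at a mean FPKM of 2 to under 5, by 0.20 at 10 to under 30 and by 0.01 at 100 to under 300. In the class of at least 1000, with 21 X-linked genes, it was lower by 0.17. The X median in ia03 was 0.09. Sperm and meiosis genes are rare on the X chromosome as background, and their part in this difference was not tested.

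**Figure D5:**
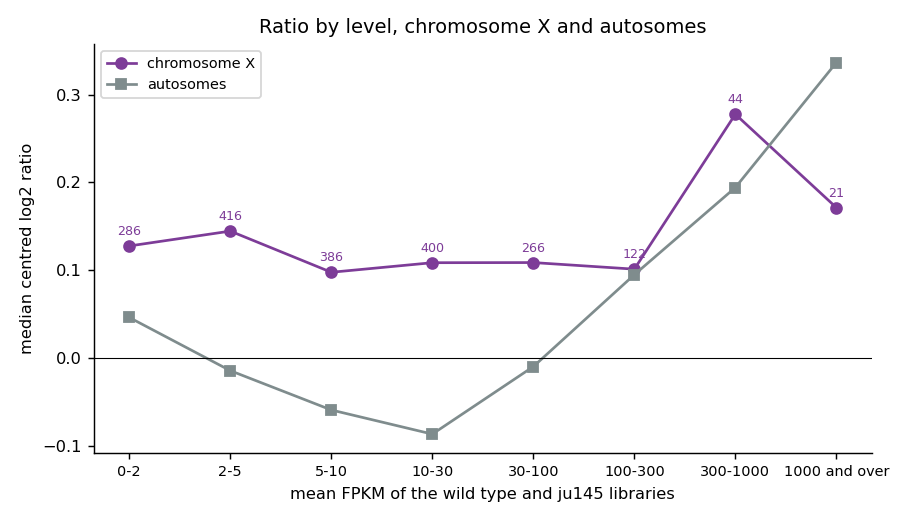
Median centred log2 ratio of ju145 over wild type by class of mean FPKM, for genes of the X chromosome (purple circles, with the number of genes) and of the autosomes (grey squares). The X line lies above the autosomal line up to a mean FPKM of 1000 and below it beyond.

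In runs of 10 neighbouring genes, 99% of the 14395 run medians lay between -0.50 and 0.40 on the centred log2 scale. The highest was a histone cluster on chromosome II (13819557 to 13827640), with a median of 0.84 in ju145 and 0.39 in ia03. It holds his-10, his-14 and his-26, which had the same values, so its genes are not all separate observations. A run of nspe genes on chromosome II (12613436 to 12642674) had 0.65. The run next to the histone cluster (13752251 to 13818670), with 3 arrd genes of the arrestin family, had 0.64. The lowest was a set of short repeated noncoding RNAs on chromosome I (4321096 to 4359106), with -1.03 in ju145 and -1.71 in ia03. ZK973.12 of this set stood at 923 FPKM in wild type, 409 in ju145 and 280.5 in ia03. The features of that run share 1 locus, so they are not separate observations.

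The second lowest run lay on chromosome V (2287805 to 2330929), with a median of -0.65 in ju145 and -0.19 in ia03, and held the 6 pud genes. pud-3 measured 46.4 FPKM in wild type, 10.51 in ju145 and 45.03 in ia03, a centred log2 ratio of -1.86 in ju145, and pud-4 had 21.9, 8.64 and 19.05. pud-1.2 had 852, 443 and 574, pud-2.1 had 626, 329 and 439.5, and pud-1.1 had 471, 281 and 377. All 6 were below wild type in ju145, and pud-3 alone among those named here was at the wild-type level in ia03. pud-2.1 and pud-2.2 are near-identical copies. The third run (chromosome I, 6640654 to 6706379) had -0.63 in both mutants and holds C17F3.3, given above.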

How the data were processed

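Messenger RNA of whole L4 animals was sequenced in 3 strains, 1 library each. Per the labels' protocols, animals were synchronised with hypochlorite, RNA was extracted with TRIzol and treated with DNase, and libraries were made with an Illumina kit. The submitters' processing notes name TopHat (1.3.1), Cufflinks (1.3.0), Cuffdiff, Bowtie2 (2.0.2), SAMtools (0.1.16) and FastQC without saying what each did. The genome build, like the annotation, was not given in the sources used here. The authors deposited FPKM values for 45343 features, per the file headers. FPKM holds no counts, so depth is unknown and no interval could be given, and a few abundant RNAs in 1 library lower all other values. Per the file headers, each feature also carries the authors' status, q-value and p-value.

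The log2 ratio of FPKM + 1 was computed for the 14463 features that passed the status, the floor of FPKM 1 and the locus span of 300 nt, and centred on its median of -0.18. Adding 1 makes the differences of low genes look smaller than they are. Past 2-fold means a centred log2 ratio of at least 1 in size, with no test. Of 16646 features with status OK, 14686 reached the floor, and the span removed 223. A locus in the files is the whole stretch of overlapping features, and 3336 of the genes compared share theirs. The gene groups are 60 lists of names, 57 of them with 5 or more measured genes, and "other genes at like level" are those of the same class of mean FPKM. The centred ratio of ia03 uses its own median of -0.02.

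The genes compared and the lists were chosen with earlier results of these data known. The rule for naming took the genes of the ahr-1 pathway, the 12 highest and 12 lowest ratios with FPKM of at least 1 in both libraries, the 6 per direction listed at 0, up to 4 genes per list, and the 3 highest and 3 lowest runs of 10 neighbours. The 12 per direction among coding genes with a reference transcript of at least 300 nt, and other genes named beyond this rule, were chosen after their values were seen.

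Of the features, 44880 were found by sequence name in Ensembl release 115, the source of biotypes and lengths. The files gave symbols to 24971 features, the reference to 2565, and 17807 go by their sequence name. Mitochondrial names came from the RefSeq table of WBcel235, by an overlap of at least 90%. Coordinates come from the files and start at 1. The 15 alternatives changed the pseudocount, filters, scaling, size limit, span or reference length. Only the centring and the 2-fold rule were tested on simulated data, with noise equal for all genes and low genes left out. Computation used Python 3.11.15, numpy 2.4.6, pandas 2.3.3 and matplotlib 3.10.9.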

Additional observations from a re-analysis of the deposited data

Results flagged for a closer look

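dpy-7, a furrow collagen gene and the hypodermis marker, stood outside the comparison because the deposited status of its row was FAIL, but its centred ratio in ju145 lay above those of the 5 furrow collagens that were compared. Its FPKM was 54.5 in wild type, 111 in ju145 and 161 in ia03, a centred log2 ratio of 1.20 in ju145 and 1.57 in ia03. Of 76 genes of the lists that were left out for their status with an FPKM of at least 1 in both libraries, it was the only 1 past 2-fold.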

How the results depend on the processing

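The counts of genes at least 2-fold higher and lower were 170 and 259. They became 285 and 436 with a pseudocount of 0.1, 70 and 134 with a pseudocount of 5, 108 and 154 with a locus span of at least 1000 nt, 770 and 1041 at 1.5-fold, 56 and 88 at 4-fold, and 44 and 116 with the authors' q-value under 0.05 as well. With a floor of FPKM 5 there were 110 higher genes, and with no centring 442 lower. Of the alternatives chosen after seeing the data, a reference transcript of at least 300 nt gave 89 and 139, one of at least 500 nt gave 46 and 75, and values above 0 in both libraries gave 91 higher genes. Other counts stayed within 1.5 times. With no centring 27 of the 40 list medians above the centre were below 0. Those that had been above it by at least 0.1 on the log2 scale were pan-neuronal genes -0.0599, acr and lgc channels -0.0270, catalases and superoxide dismutases -0.0460, histones -0.0032, mitochondrial ribosomal proteins -0.0156, translation factors -0.0812, citric acid cycle -0.0171, glycolysis -0.0794, lipases -0.0522, proteasome -0.0358, vacuolar ATPase -0.000915, lysozymes and antimicrobial peptides -0.0682 and muscle genes -0.0076. The insulin-like median was 0.20 with a span of at least 1000 nt. Through the alternatives 38 genes at either end of the ratios were followed, and the other named genes were not. Of the 38, 5 short low ones (Y75D11A.1, ZC190.9, nssp-65, Y54G2A.48 and R10D12.7) fell under 2-fold with a pseudocount of 5. The cause was not tested. No paired analysis was possible because each strain has 1 library, and for the same reason no library could be left out. FPKM gives no depth, so single low genes have no known precision.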

Other observations

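Genes of protein breakdown and muscle lay slightly above the centre in ju145, with 0 genes past 2-fold, against 1.18% higher and 1.79% lower over all genes. Of 31 proteasome genes 27 were above it, with a median centred log2 ratio of 0.15, beside 0.09 for other genes at like level. pbs-1, a catalytic-core subunit gene, was at 224 FPKM in wild type, 307 in ju145 and 240 in ia03. Of 20 vacuolar ATPase genes, which acidify organelles, 15 were above the centre (median 0.18, beside 0.16). Of 31 muscle contractile genes 23 were (median 0.18, beside 0.09), with the actin gene act-4 highest at 1849, 2321 and 1856. These medians turn negative for the proteasome, the vacuolar ATPase and muscle when the ratios are not centred.

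Signalling groups of few animal-wide transcripts stayed near the centre. Of 1628 listed chemoreceptor genes only 29 were measured, with a median of -0.01. srx-125 alone was past 2-fold, with 3.26 FPKM in wild type, 0.781 in ju145 and 5.38 in ia03, against 1.79% of all genes lower. It passed the floor only through wild type, so it had to be lower. Monoamine genes had a median of 0.02 over 6 genes, and tbh-1, which makes octopamine, had 53.8, 40.3 and 37.5. Hypoxia pathway genes had a median of 0.08 over 9 genes, and cysl-2, a cysteine synthase-like gene induced by hypoxia signalling, had 33.6, 40.1 and 55.1. Globins had a median of 0.07 over 26 genes. Of 57 acyl-CoA synthetase and beta-oxidation genes, acs-25 alone was past 2-fold, with 1.95, 0.212 and 0.619, against 1.79% of all genes lower. It too passed the floor only through wild type.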
